A study of Mus musculus with 12 samples.

Results

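Xenobiotic metabolism genes were followed in 12 C57BL/6 mice, 6 weeks old, through total RNA of their isolated colonic epithelium. The set was chosen by name, as 46 genes out of the 55304 gene symbols in the count files. The rule uses no expression value, but the genes were chosen with earlier results of these data known. The set is therefore not independent of the data. It holds 6 genes of cytochrome P450 oxidation, 3 flavin monooxygenases, 5 carbonyl and quinone enzymes, 7 hydrolases, 13 glutathione enzymes, 4 transferases of glucuronic acid or sulfate, 4 efflux pumps and 4 receptors or regulators. The study deleted Ehf, which encodes a transcription factor of the ETS family, in the intestine. Each of 3 groups held 4 mice. Ehf IKO mice carried the intestinal deletion, had received tamoxifen and came from a source labelled EVCER. Control TMX mice were labelled wild-type, had received tamoxifen and came from the VilCreER line, whose Cre recombinase is driven by the Villin promoter of intestinal epithelium and is activated by tamoxifen. Control OIL mice were labelled wild-type, came from the EVCER source and had received sunflower oil. Tamoxifen, activated Cre and the line of origin differ together between Control TMX and Control OIL and cannot be told apart, and neither can the Ehf deletion and the line between Ehf IKO and Control TMX. Ehf IKO and Control OIL differ in tamoxifen, any Cre it activates and the deletion together, and these cannot be told apart either.

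Cells clear foreign compounds in steps. Cytochromes P450, flavin monooxygenases, reductases and esterases first expose or add a reactive group, transferases then attach glutathione, glucuronic acid or sulfate, and ABC pumps carry the products out of the cell. In the colon these genes face dietary and microbial compounds, and the receptors PXR (Nr1i2), CAR (Nr1i3) and AhR (Ahr) and the stress-response factor NRF2 (Nfe2l2) control many of them.

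Libraries held 7421411 to 10344161 counted reads, and 15743 genes passed the filter on low counts. Levels are CPM, read counts scaled to the depth of the library with TMM factors. Each log2 fold change stands with the SE of the edgeR fit. A gene is called, and is said to have risen or fallen, where its edgeR p adjusted over all 15743 genes was under 0.05. Epithelial markers were high throughout: the 10 genes of the colonic epithelium list summed to 8280.1 to 9511 CPM in Ehf IKO, 7929 to 8197 CPM in Control TMX and 6704 to 8276 CPM in Control OIL. By Xist and 4 Y-linked genes, each group held females as replicates 1 and 2 and males as 3 and 4. The labels give no sex, and no label says that mice with the same number share a litter or a day. Ehf read 309 to 371 CPM in Ehf IKO, 326 to 375 CPM in Control TMX and 385 to 481 CPM in Control OIL. Those reads are summed over whole genes and the deleted exons are not named, so they do not measure the deletion.

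The colon expressed nearly the whole set. Per kilobase of exon, 33 of the 46 members averaged at least 10 CPM over the 12 libraries and 4 stayed under 1. Cyp2c55, a P450 of the arachidonic acid-oxidising CYP2C family, was the most abundant at 370.5 CPM per kilobase. Next came Abcb1a, the P-glycoprotein pump, at 138.3, the glutathione enzyme Mgst3 at 129 and the basolateral pump Abcc3 at 101 CPM per kilobase. Sult1a1, a sulfotransferase of phenols, averaged 96.1 CPM per kilobase and Ces2c, a carboxylesterase, 78.0. Among the remaining roles the most abundant members were the carbonyl reductase Cbr1 at 50.1, the regulator Nfe2l2 at 39.9 and the flavin monooxygenase Fmo5 at 5.78 CPM per kilobase. Cyp2c55 ranged from 56.8 to 1303 CPM between libraries, so its place at the head of the order rests on means, and its lowest values were the 2 male Control OIL libraries. Mgst3 at 129 and Abcb1a at 138.3 CPM per kilobase lay within the spread of each other's libraries.

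At the other end stood Cyp1a1 and Nr1i3. Cyp1a1, the P450 that activated AhR induces, had 4 counts in all 12 libraries together, with 2 in 1 Ehf IKO library and 1 in a library of each control group. Nr1i3 had 6 to 8 counts in the Ehf IKO libraries, 6 to 17 in Control TMX and 6 to 17 in Control OIL. Both were below the filter and were not tested, which leaves 44 tested members. For Nr1i3, 74.9% of exon bases also belong to Tomm40l, and reads there were not counted. The other regulators could be tested. Nr1i2 averaged 85.7 ± 7.51 CPM in Ehf IKO, 86.7 ± 12.8 in Control TMX and 82.4 ± 3.31 in Control OIL (SD, n = 4 each). Nfe2l2 averaged 161 ± 7.64, 156 ± 14.9 and 137.9 ± 18.7 CPM in the same order of groups. Ahr averaged 13.5 ± 1.84 CPM in Ehf IKO, 15.02 ± 2.14 in Control TMX and 16.0 ± 2.21 in Control OIL. None of these 3 was called in any of the 4 comparisons; their edgeR adjusted p lay between 0.397 and 0.974, and Nfe2l2 alone had an unadjusted p under 0.05, in the comparison of tamoxifen-treated with oil-treated mice.

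**Figure D1:**
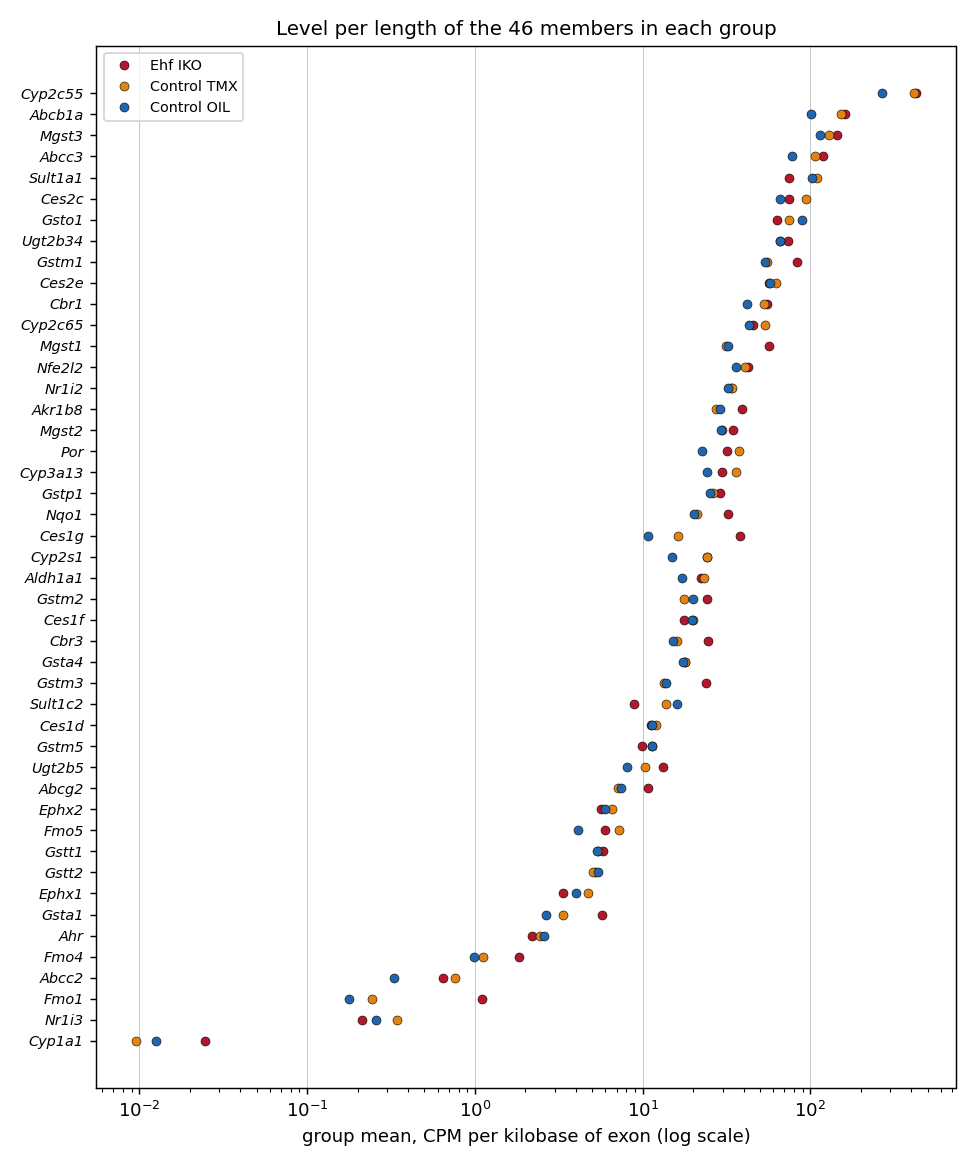
Group means of the 46 members in CPM per kilobase of exon, on a log axis, with 1 point per group. Cyp2c55 leads with 429.6 in Ehf IKO, 414 in Control TMX and 268 in Control OIL, and Cyp1a1 lies lowest, at 0.0248, 0.0095 and 0.0125 in the same groups.

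The question set for these genes was whether tamoxifen-treated colons differed from oil-treated ones. The mean of Ehf IKO and Control TMX was set against Control OIL, with 8 mice against 4. Por and Cyp2s1 rose. They were 2 of the 44 tested members; of all genes tested 0.515% were called, and 0.26% were called higher. No member was called lower by edgeR or by DESeq2, and 2 had an unadjusted p under 0.05 in that direction, beside 17 in the upward one. In all, 19 members had such a p, against 12.6% of all genes. The log2 fold change was above 0 for 37 of the 44 members and for 48% of all genes, with medians of 0.26 for the members and -0.01 for all genes. In bulk samples such as these, fewer cells of a type and less RNA per cell cannot be told apart.

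Por encodes the reductase that hands electrons to every microsomal P450 (ENSMUSG00000005514, chr5:135670033-135735326, plus strand). It was counted at 141, 147.3, 132 and 94.0 CPM in Ehf IKO replicates 1 to 4 and at 156, 151.3, 154 and 145 CPM in Control TMX, against 94.6, 104, 80.0 and 87.0 CPM in Control OIL. Every Control TMX library stood above every oil library, and among the Ehf IKO libraries replicate 4 alone fell inside the oil range. The log2 fold change was 0.61 ± 0.11 for tamoxifen-treated against oil (edgeR adjusted p = 0.0263), a 1.53-fold level. Against the same oil libraries it was 0.49 ± 0.13 in Ehf IKO (edgeR adjusted p = 0.0674) and 0.73 ± 0.13 in Control TMX (edgeR adjusted p = 0.0418). Por was the only member called in Control TMX against Control OIL, where 0.0826% of all genes were called and 0.0381% were called higher. In that comparison 8 members had an unadjusted p under 0.05, against 12.9% of all genes, 34 of 44 had a log2 fold change above 0, against 48.5%, and 5 had all 4 Control TMX libraries above all 4 oil libraries, as 3.68% of all genes did. The call in Control TMX was lost in 9 of 12 fits that each left out 1 library, with edgeR adjusted p up to 0.165 without Control TMX replicate 1.

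Cyp2s1, a P450 of epithelia outside the liver (ENSMUSG00000040703, chr7:25802475-25816913, minus strand), had like levels in both tamoxifen-treated groups. It reached 133, 140.2, 108 and 95.2 CPM in Ehf IKO and 127, 127, 122 and 101 CPM in Control TMX, against 76.0, 87.4, 74.5 and 56.4 CPM in Control OIL. All 8 tamoxifen-treated libraries were above all 4 oil libraries, which held for no other member and for 0.769% of all genes. The log2 fold change was 0.70 ± 0.13 (edgeR adjusted p = 0.0263), 1.62-fold. It was 0.70 ± 0.14 in Ehf IKO against oil (edgeR adjusted p = 0.0244) and 0.70 ± 0.14 in Control TMX against oil (edgeR adjusted p = 0.114), while Ehf IKO and Control TMX differed by 0.00 ± 0.14. Both calls against oil were fragile: without 1 library in turn, Por and Cyp2s1 each lost the call in 8 of 12 fits, with edgeR adjusted p up to 0.12 for Por without Control OIL replicate 3 and up to 0.0993 for Cyp2s1 without Control OIL replicate 4. They kept their direction in all 12.

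Promoters are shown for these genes and for Mgst1 and Ces1g, described next, because the first pair rose in tamoxifen-treated mice and the second in Ehf IKO. Each is the 250 bases before the gene's start in the RefSeq promoter table (build GRCm38.p6), read 5′ to 3′ on the gene's own strand; RefSeq's starts can lie inside the Ensembl gene, as for Por. Capitals mark matches, on either strand, to CCGGAA (the core that ETS factors bind), GCGTG (the core of the AhR site), TGACNNNGC (the antioxidant response element that NRF2 binds) or AGNTCA (a nuclear receptor half-site). No 2 matches overlap in the windows shown.
Cyp2s1, minus strand, chr7:25816526-25816775: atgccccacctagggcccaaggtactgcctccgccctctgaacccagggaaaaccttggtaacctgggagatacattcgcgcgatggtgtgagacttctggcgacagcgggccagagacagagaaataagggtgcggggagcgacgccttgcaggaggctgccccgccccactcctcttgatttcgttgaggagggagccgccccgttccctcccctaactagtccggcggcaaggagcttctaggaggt
Por, plus strand, chr5:135688895-135689144: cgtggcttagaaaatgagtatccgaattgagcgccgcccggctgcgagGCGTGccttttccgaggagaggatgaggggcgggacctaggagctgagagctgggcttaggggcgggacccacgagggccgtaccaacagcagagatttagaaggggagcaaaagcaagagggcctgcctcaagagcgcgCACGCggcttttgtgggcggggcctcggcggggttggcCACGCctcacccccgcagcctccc
Mgst1, plus strand, chr6:138140277-138140526: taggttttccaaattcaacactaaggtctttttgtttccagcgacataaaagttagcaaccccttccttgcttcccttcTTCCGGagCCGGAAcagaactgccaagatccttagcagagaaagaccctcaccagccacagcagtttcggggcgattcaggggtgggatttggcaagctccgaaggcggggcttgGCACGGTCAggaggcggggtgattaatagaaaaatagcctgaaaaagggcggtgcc
Ces1g, minus strand, chr8:93337210-93337459: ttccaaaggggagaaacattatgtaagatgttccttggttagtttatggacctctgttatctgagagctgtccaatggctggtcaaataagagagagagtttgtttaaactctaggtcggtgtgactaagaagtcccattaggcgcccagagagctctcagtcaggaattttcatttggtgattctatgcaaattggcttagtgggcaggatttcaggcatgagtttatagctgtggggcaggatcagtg
The Por window holds 3 AhR cores, whose first letters lie 202, 62 and 24 bases before the start. The Mgst1 window holds 2 ETS cores on opposite strands 171 and 163 bases before the start and 1 antioxidant response element 56 bases before it; a window at a second Mgst1 start has no match. The Cyp2s1 and Ces1g windows hold none of the 4 motifs. Of the other members called in Ehf IKO that are in the table, Cbr3 has none and Fmo4 has 1 half-site and no ETS core. For Fmo4 the bases after that start were not found in the gene's transcripts, so it is uncertain that the window is its promoter. Of all 32851 promoters of the table, 12.03% hold the ETS core, 28.2% the AhR core, 10.2% the antioxidant element and 41.3% the half-site. Of the 43 promoters of the 38 members in the table, 9.30%, 20.9%, 9.30% and 34.9% hold them, each a smaller share than over all promoters.

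**Figure D2:**
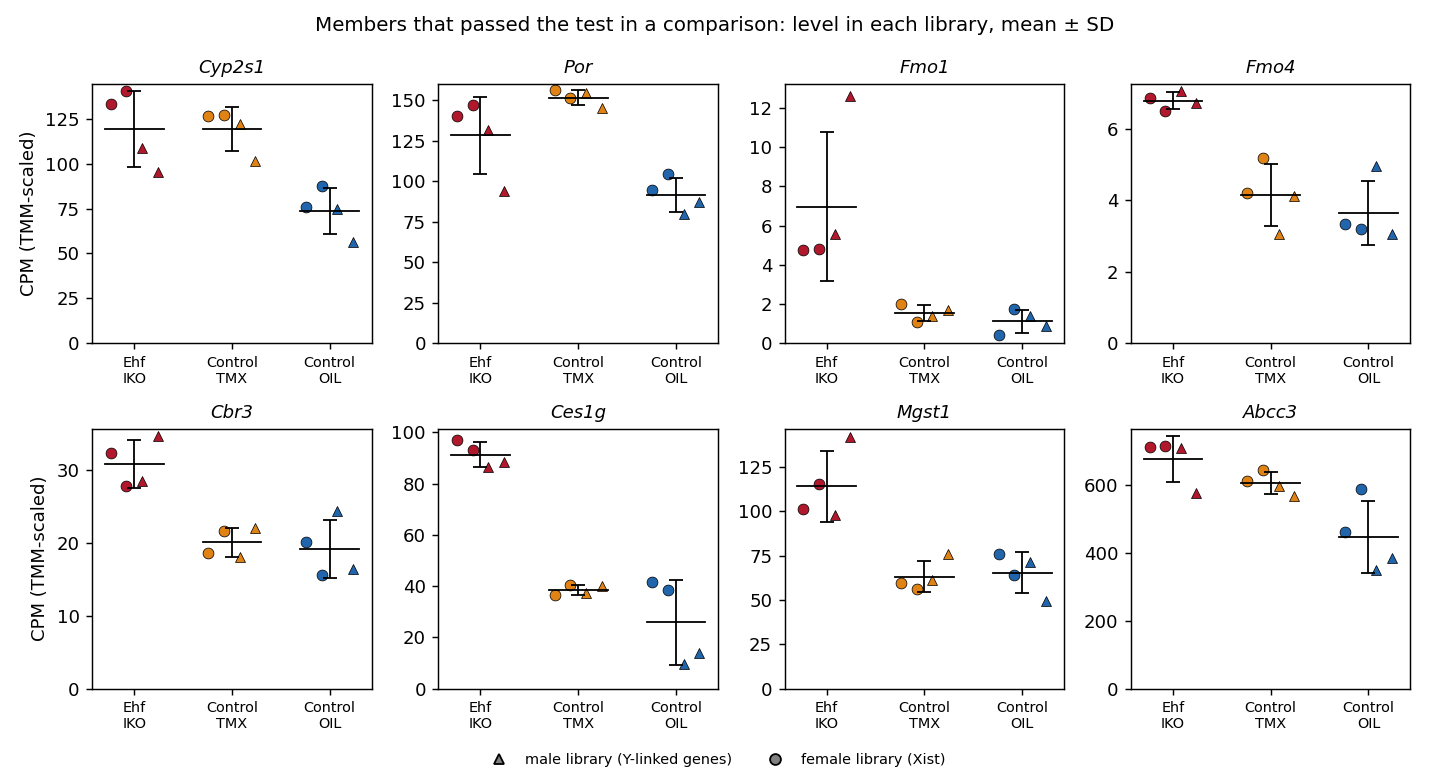
CPM of the 8 members called in any comparison, with 1 point per library, the group mean as a line and the SD as a bar; triangles are male and circles female libraries. Cyp2s1 separates both tamoxifen-treated groups from Control OIL, whereas Fmo1, Fmo4, Cbr3, Ces1g and Mgst1 separate Ehf IKO from both control groups.

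Ehf IKO against Control OIL gave the most calls of the 4 comparisons. Against Control OIL, Ehf IKO had 7 of 44 members called, all higher, where 1.68% of all genes were called and 0.921% were called higher. They were Fmo1, Fmo4, Cbr3, Ces1g, Mgst1, Abcc3 and Cyp2s1. Against Control TMX, 2 of 44 were called, Fmo1 and Mgst1, both higher, where 0.8% of all genes were called and 0.33% were called higher. These comparisons share the Ehf IKO libraries and are given side by side. In Ehf IKO against oil 33 of 44 log2 fold changes were above 0, against 48.7% of all genes, and 17 members had an unadjusted p under 0.05, against 11.9%. In Ehf IKO against Control TMX 25 of 44 were above 0, against 52.6% of all genes, and 15 had such a p, against 11.9%. No member was called lower by edgeR in either; 2 had an unadjusted p under 0.05 in that direction against oil and 3 against Control TMX, and DESeq2 called 1 lower against oil and 0 against Control TMX. In levels alone, 10 of 44 members had all 4 Ehf IKO libraries above all 4 Control TMX libraries, as 3.32% of all genes did, and 2 (Sult1a1 and Sult1c2) had all 4 below, as 3.87% of all genes did. The 10 were Fmo1, Fmo4, Akr1b8, Cbr3, Nqo1, Ces1g, Gsta1, Gstm1, Gstm3 and Mgst1. Against Control OIL, 10 members stood above in all libraries, as 3.25% of all genes did.

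Mgst1 encodes a membrane-bound enzyme that joins glutathione to reactive compounds (ENSMUSG00000008540, chr6:138140316-138156755, plus strand). Ehf IKO libraries held 101, 115, 97.9 and 142 CPM, Control TMX libraries 59.5, 55.9, 61.01 and 75.6 CPM and Control OIL libraries 75.9, 64.3, 71.6 and 49.6 CPM. The lowest Ehf IKO library lay above the highest control library, and the 2 control groups overlapped. The log2 fold change was 0.81 ± 0.15 against Control OIL (edgeR adjusted p = 0.0119). Set against Control TMX it was 0.85 ± 0.15 (edgeR adjusted p = 0.0113). These are 1.75-fold and 1.81-fold levels, while Control TMX against oil gave -0.05 ± 0.15.

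Fmo1, which oxidises nitrogen and sulfur atoms of drugs (ENSMUSG00000040181, chr1:162829561-162866610, minus strand), had the steepest rise from a low level. It read 4.78, 4.83, 5.59 and 12.6 CPM in Ehf IKO, or 35 to 94 counts a library, 2.02, 1.11, 1.38 and 1.68 CPM in Control TMX and 0.419, 1.77, 1.40 and 0.889 CPM in Control OIL. All Ehf IKO libraries were above all control libraries, and replicate 4 was more than 2 times the other three. The log2 fold change was 2.60 ± 0.40 against Control OIL (edgeR adjusted p = 0.00422). Set against Control TMX it was 2.17 ± 0.38 (edgeR adjusted p = 0.0124). With 1 library left out in turn, Fmo1 and Mgst1 stayed called against Control OIL in all 12 fits, with edgeR adjusted p up to 0.0203 and 0.0332. Against Control TMX both lost the call without Control TMX replicate 2 (edgeR adjusted p = 0.0653 and 0.0572) and without replicate 3 (0.0535 and 0.0532). Fmo4, of the same family, read 6.87, 6.49, 7.05 and 6.72 CPM in Ehf IKO, 4.19, 5.19, 3.07 and 4.11 CPM in Control TMX and 3.35, 3.21, 4.97 and 3.06 CPM in Control OIL, with a log2 fold change of 0.90 ± 0.21 against oil (edgeR adjusted p = 0.0408), and 0.72 ± 0.21 with Control TMX in its place (edgeR adjusted p = 0.15). Fmo5, the abundant member, was not called: it averaged 34.1 ± 14.6 CPM in Ehf IKO, 40.9 ± 7.07 in Control TMX and 23.4 ± 4.46 in Control OIL.

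Ces1g, a carboxylesterase of drugs and lipids (ENSMUSG00000057074, chr8:93302369-93337308, minus strand), was tight within Ehf IKO and split within oil. Its level was 97.0, 93.3, 86.5 and 88.5 CPM in Ehf IKO, 36.7, 40.4, 37.3 and 40.2 CPM in Control TMX and 41.8, 38.5, 9.55 and 13.8 CPM in Control OIL. Ehf IKO stood at over 2 times every control library, and the oil replicates 3 and 4 were far below the other two. The log2 fold change was 1.82 ± 0.37 against Control OIL (edgeR adjusted p = 0.0313). In the comparison with Control TMX it was 1.24 ± 0.36 and the call was missed (edgeR adjusted p = 0.179). Ces1d and Ces1f, its neighbours on chromosome 8, were not called, with log2 fold changes of -0.01 ± 0.43 and -0.17 ± 0.20 in Ehf IKO against oil.

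Cbr3, a carbonyl reductase, read 32.3, 27.7, 28.5 and 34.7 CPM in Ehf IKO, 18.6, 21.6, 18.0 and 22.0 CPM in Control TMX and 20.1, 15.6, 24.3 and 16.4 CPM in Control OIL. It rose against Control OIL by 0.69 ± 0.15 on the log2 scale (edgeR adjusted p = 0.0248), with 0.62 ± 0.14 against Control TMX (edgeR adjusted p = 0.064). Its paralogue Cbr1 was not called, at 0.40 ± 0.15 and 0.06 ± 0.15 in the same comparisons. Abcc3, which exports conjugates across the basolateral membrane, held 713, 714, 708 and 576 CPM in Ehf IKO, 611, 645, 598 and 568 CPM in Control TMX and 463, 589, 348 and 385 CPM in Control OIL. Oil replicate 2 reached into the range of the others. Its log2 fold change was 0.60 ± 0.14 in Ehf IKO against oil (edgeR adjusted p = 0.0458) and 0.52 ± 0.13 in the pooled tamoxifen comparison (edgeR adjusted p = 0.0781). Against Control OIL, leaving out 1 library ended the call of Abcc3 in 10 of 12 fits, with edgeR adjusted p up to 0.145 without Control OIL replicate 3, and of Fmo4 in 8, up to 0.121 without Ehf IKO replicate 3. It ended that of Ces1g in 6, of Cyp2s1 in 5 and of Cbr3 in 4, with edgeR adjusted p up to 0.089, 0.0812 and 0.0782, each without Ehf IKO replicate 1.

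By role, the numbers of members above and below 0 varied, and differences between roles were not tested. Over all genes 52.6% were above 0 in Ehf IKO against Control TMX. Of 13 glutathione enzymes, 10 were above 0 in Ehf IKO against Control TMX and 3 below, with Mgst1 called; their log2 fold changes ran from -0.23 to 0.85. Of 7 hydrolases, 6 were below 0 in that comparison and Ces1g alone above, and all 7 were above 0 in Control TMX against oil. In Ehf IKO against Control TMX the tested P450 genes and Por had 2 above and 3 below, from -0.28 to 0.05. All 5 were above 0 in Ehf IKO and in Control TMX against oil. Control TMX enters its comparisons with Ehf IKO and with oil with opposite signs, so these are not independent. In Ehf IKO against Control TMX an unadjusted p under 0.05 was found for 5 glutathione enzymes, 2 hydrolases and 0 of these 5, against 11.9% of all genes. The sulfotransferases lay lower in Ehf IKO than in Control TMX without being called. Sult1a1 held 108.6, 109.4, 109.5 and 125 CPM in Ehf IKO, 190.0, 144, 166 and 165 CPM in Control TMX and 223, 187, 124 and 85.0 CPM in Control OIL, so Ehf IKO lay below Control TMX in every library (log2 fold change -0.55 ± 0.22, edgeR adjusted p = 0.346). Mgst3, the most abundant glutathione enzyme, averaged 159 ± 18.7 CPM in Ehf IKO, 142 ± 15.6 in Control TMX and 125 ± 26.4 in Control OIL and was not called. Ces2c averaged 171 ± 37.1, 216 ± 20.6 and 151.4 ± 33.7 CPM in the same order and was not called either. For 8 members over 10% of the 50-base windows of their transcripts also occur in another gene, from 17.6% in Abcb1a to 90.5% in Gsta1, so their uniquely mapped counts rest on the remaining sequence; among the 8 called members none is of that kind.

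**Figure D3:**
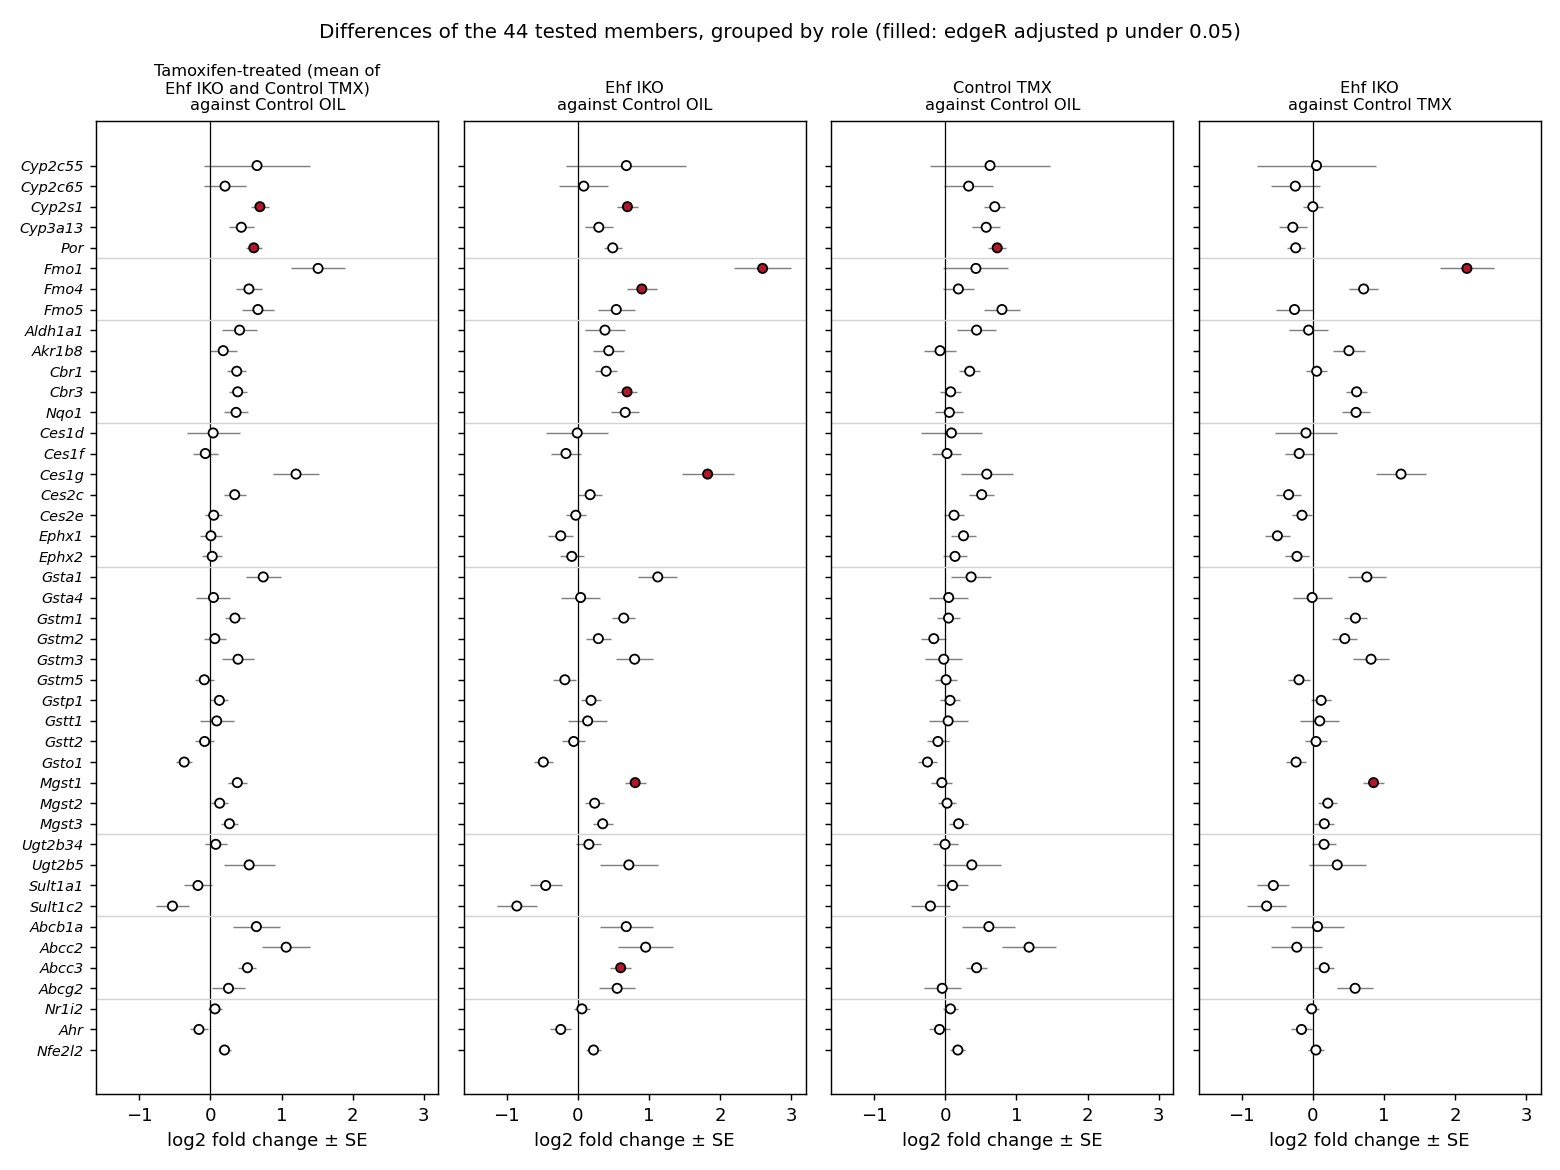
Log2 fold change ± SE of the 44 tested members in the 4 comparisons, ordered by role, with filled points for edgeR adjusted p under 0.05. Fmo1 is at 2.60 in Ehf IKO against Control OIL and 2.17 against Control TMX, and Por alone is filled in Control TMX against Control OIL.

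Several abundant members were divided within the oil group. Cyp2c55 was counted at 943, 1274, 674 and 536 CPM in Ehf IKO, 448, 493, 1059 and 1303 CPM in Control TMX and 1035, 928, 56.8 and 118 CPM in Control OIL. Oil replicates 3 and 4 were below every other library, while oil replicates 1 and 2 lay within the range of the tamoxifen-treated mice. In Control TMX the order was turned, with replicates 3 and 4 above 1 and 2. Its pooled log2 fold change of 0.66 ± 0.75 was smaller than its SE. Abcb1a, which pumps a wide range of drugs into the lumen, had the same split, with 956, 1230.0, 796 and 544 CPM in Ehf IKO, 733, 687, 965 and 981 CPM in Control TMX and 743, 862, 226 and 370.1 CPM in Control OIL. Of the 44 tested members, 30 had oil replicates 3 and 4 both below replicates 1 and 2, as 20.6% of all genes did, and 2 had them both above, as 20.2% did. The same count was 18 below and 8 above in Ehf IKO, beside 26.6% and 26.3% of all genes. It was 8 below and 19 above in Control TMX, beside 26.2% and 26.7% of all genes.

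**Figure D4:**
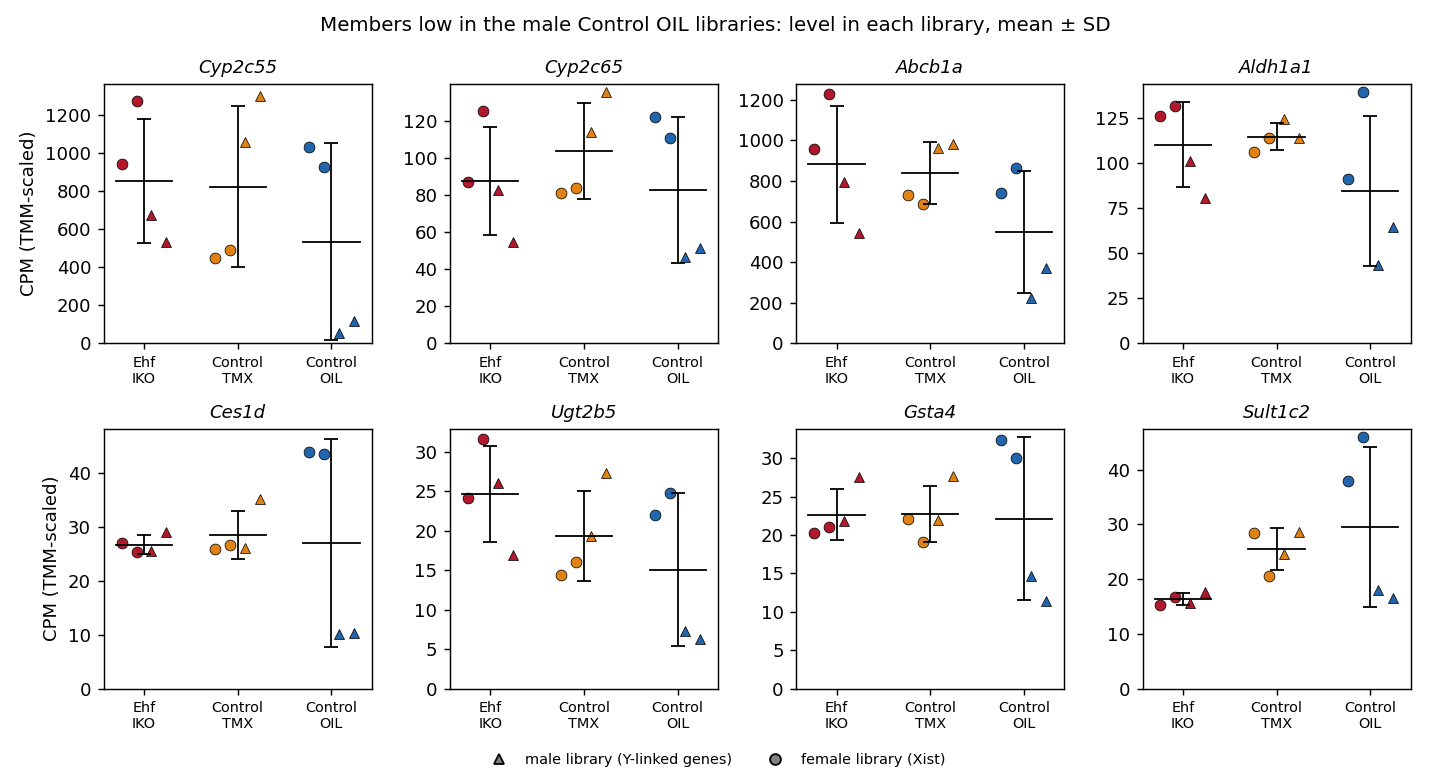
CPM of 8 members that were lower in the male than in the female Control OIL libraries, chosen after their values were seen, with 1 point per library, the group mean as a line and the SD as a bar; triangles are male and circles female libraries. Cyp2c55 reads 56.8 and 118 CPM in the 2 male oil libraries and 448 CPM or more in every other library.

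Replicates 3 and 4 are the male mice of each group, so the comparisons were repeated with group and sex as factors. This split was added after the values were seen, sex comes from Xist and the Y-linked genes, none of them a member, and each group then holds 2 male and 2 female mice. Whatever else was shared by replicates 3 and 4, such as a litter or cage, cannot be told apart from sex. Within Control OIL, 14 of 44 members were lower in males than in females and none was higher by edgeR (26 members had an unadjusted p under 0.05), where 0.915% of all genes were called and 0.667% were called lower. Within Control TMX 3 members (Akr1b8, Ces1f and Abcg2) were higher in males, where 1.73% of all genes were called and 1.2% were called higher. Within Ehf IKO none was called (15 with an unadjusted p under 0.05, against 20.3% of all genes), where 0.0762% of all genes were called.

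The comparison of tamoxifen-treated with oil-treated mice read differently in the 2 sexes. In male mice 22 of 44 members rose and none fell by edgeR (28 had an unadjusted p under 0.05 in either direction), where 2.86% of all genes were called and 1.65% were called higher. In female mice 5 rose and 7 fell, where 6.35% of all genes were called, 2.46% higher and 3.89% lower. The difference between the sexes was itself called for 16 members, 15 of them with the larger value in males, where 4.15% of all genes were called. Median log2 fold changes of the members were 0.55 in males and -0.02 in females, beside medians near 0 for all genes in both sexes.

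Cyp2c55 differed most, with a log2 fold change of 3.27 ± 0.30 in males (edgeR adjusted p = 0.000486) and -0.44 ± 0.24 in females (edgeR adjusted p = 0.273). Ces1g rose in both, by 2.30 ± 0.14 in males and 0.60 ± 0.12 in females, with a male minus female difference of 1.71 ± 0.18 (edgeR adjusted p = 0.000281). The related esterase Ces1d, named after its values were seen, rose by 1.50 ± 0.15 in males and fell by 0.74 in females on the log2 scale. Its levels were 26.9, 25.3, 25.4 and 29.0 CPM in Ehf IKO, 25.8, 26.7, 26.1 and 35.1 CPM in Control TMX and 43.9, 43.4, 10.1 and 10.4 CPM in Control OIL. Male oil libraries were below, and female oil libraries above, all 8 tamoxifen-treated ones.

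Other members with this crossing were the aldehyde reductase Akr1b8, the esterase Ces1f and Gsta4, a glutathione enzyme for lipid aldehydes, each of which rose in males and fell in females. Sult1c2, a sulfotransferase, held 15.3, 16.7, 15.6 and 17.7 CPM in Ehf IKO, 28.4, 20.5, 24.7 and 28.6 CPM in Control TMX and 37.9, 45.9, 18.1 and 16.5 CPM in Control OIL. It fell in females by 1.09 on the log2 scale (edgeR adjusted p = 0.00152) and was 0.29 ± 0.16 in males (edgeR adjusted p = 0.38). Of the 16 members with a called difference, the pump Abcc2 alone had the larger value in females, with 0.18 ± 0.31 in males and 1.84 ± 0.32 in females. Its male minus female difference of -1.65 ± 0.45 lay close to the threshold (edgeR adjusted p = 0.049) and rests on 13 to 91 counts a library. These members were named after their values were seen.

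Each tamoxifen-treated group showed the pattern against the same oil libraries. Among males, 18 members rose and none fell by edgeR in Ehf IKO against oil, where 2.64% of all genes were called and 1.56% were called higher. In females 5 rose and 4 fell, where 3.3% of all genes were called, 1.61% higher and 1.69% lower. The difference between the sexes was called for 6 members, each with the larger value in males, where 0.311% of all genes were called. In Control TMX against oil, 15 members rose and none fell in males, where 1.55% of all genes were called and 1.08% were called higher. In females 4 rose and 9 fell, where 8.96% of all genes were called, 3.42% higher and 5.54% lower. The difference was called for 17 members, each with the larger value in males, where 4.5% of all genes were called.

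Por and Cyp2s1 were the members that rose in tamoxifen-treated mice of both sexes with no difference called between them. Por gave 0.64 ± 0.13 in males and 0.58 ± 0.13 in females (edgeR adjusted p = 0.0131 and 0.0181), and the difference was 0.06 ± 0.18. Cyp2s1 gave 0.71 ± 0.13 in males and 0.69 ± 0.13 in females (edgeR adjusted p = 0.00845 and 0.0106), with a difference of 0.02 ± 0.18. In Ehf IKO against Control TMX, where the oil libraries play no part in the means, Ces1g rose in both sexes, by 1.17 ± 0.14 in males and 1.30 ± 0.14 in females (edgeR adjusted p = 0.00071 and 0.000111). In that comparison 2 members rose in males, where 0.515% of all genes were called and 0.152% were called higher. In females 9 rose, where 5.02% of all genes were called and 2.46% were called higher. The difference between the sexes was called for Abcg2 alone, where 0.0699% of all genes were called.

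With 1 library left out in turn, 8 of the 16 differences between the sexes were called in all 12 fits. They were those of Cyp2c55, Ces1d, Ces1g, Ces1f, Akr1b8, Gsta4, Sult1c2 and Ugt2b5. The number of members that rose in males was 8 without Control OIL replicate 4, 13 without Control TMX replicate 4 and 16 to 25 without any other library; 1 oil mouse is left in the first case and is taken to vary like the other groups. None fell in males in those fits. Differences between the sexes were called for 9 members without Control OIL replicate 1 and for 10 without Control OIL replicate 4 or Control TMX replicate 4. In females, without Control OIL replicate 1 none rose and 1 fell by edgeR, without Control TMX replicate 2 2 rose and 4 fell, and without Ehf IKO replicate 1 or 2 4 rose and 4 fell.

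**Figure D5:**
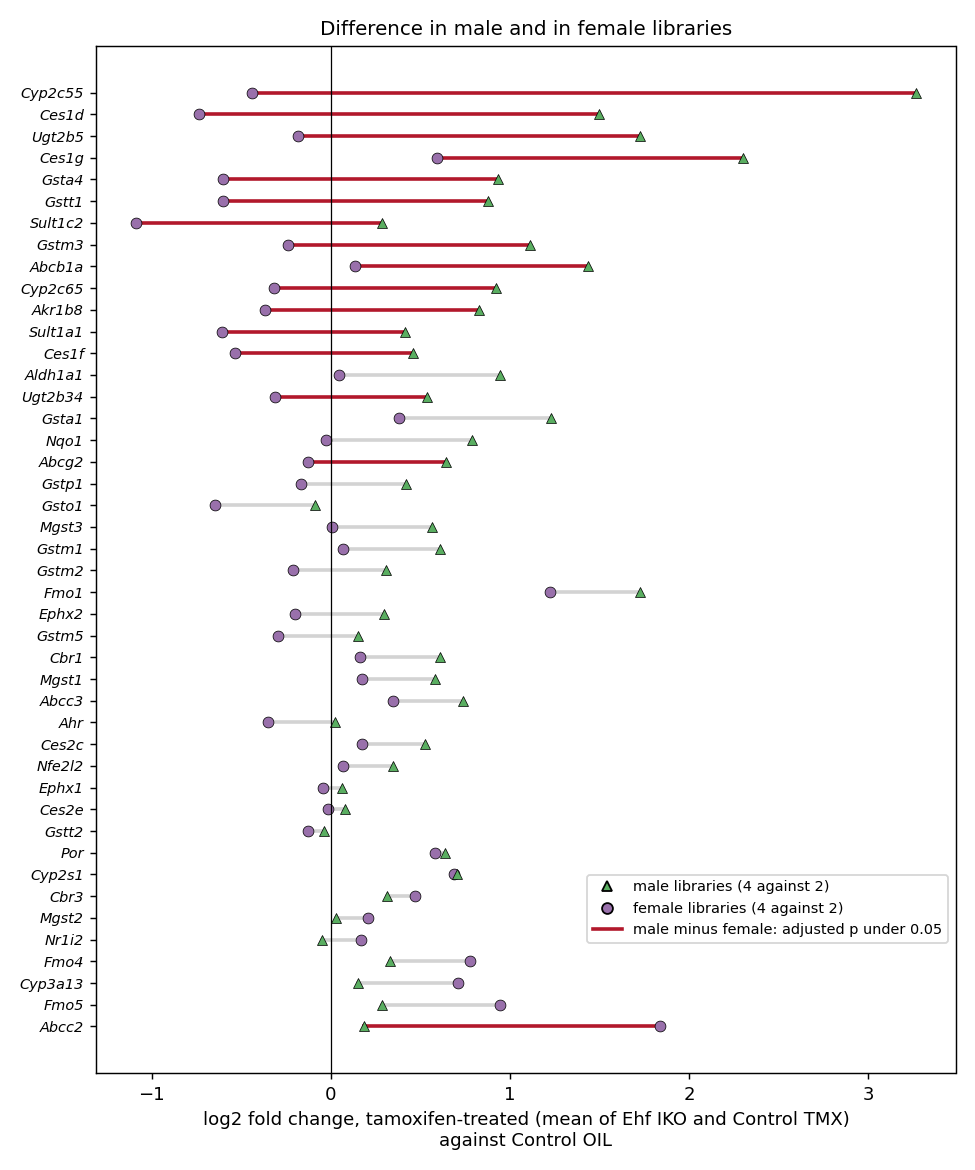
Log2 fold change of the 44 tested members in tamoxifen-treated against oil-treated mice, triangles for male and circles for female libraries, sorted by the difference; red bars mark an edgeR adjusted p under 0.05 for that difference. Cyp2c55 reaches 3.27 in males and -0.44 in females, whereas the 2 points of Por and of Cyp2s1 nearly coincide.

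Other genes moved with these differences, and their part in the results was not tested beyond the 1 fit with a fibroblast score given here and those with other scores in the closing section. Car1, a carbonic anhydrase of colonocytes, read 590 and 880 CPM in the 2 male oil libraries and 1810 to 3699 CPM in the other 10. The colonocyte genes Slc26a3 and Aqp8 were not split in that way. Slc26a3 read 353 and 651 CPM in male and 353 and 514 CPM in female oil libraries, and Aqp8 164 and 261 CPM in male and 148 and 328 CPM in female ones. Cd74, an antigen-presentation gene of immune cells, read 348 CPM in male oil replicate 3 and at most 63.3 CPM in the other 11 libraries. The 10 immune markers summed to 59.9 to 85.3 CPM in Ehf IKO, 40.5 to 61.01 CPM in Control TMX and 58.8 to 396 CPM in Control OIL, with that replicate the highest. Cd74 is among those 10 and gave 348 of the 396 CPM in that replicate. The 10 differentiated colonocyte markers summed to 4111 to 7652 CPM in Ehf IKO, 5809 to 6341 CPM in Control TMX and 2782 to 5586 CPM in Control OIL, and 1 of the 10 rose in Ehf IKO against oil. The 13 fibroblast and matrix markers summed to 548 to 1181 CPM in Ehf IKO, 541 to 920 CPM in Control TMX and 387 to 526 CPM in Control OIL. Of those 13, 4 rose in Ehf IKO against oil and 2 in the pooled tamoxifen comparison, where 0.921% and 0.26% of all genes were called higher. Endothelial markers, 6 genes, summed to 11.3 to 17.9 CPM in Ehf IKO, 11.1 to 16.8 CPM in Control TMX and 8.08 to 10.7 CPM in Control OIL, with no overlap between tamoxifen-treated and oil-treated mice. Smooth muscle markers, 7 genes, summed to 21.1 to 75.6 CPM in Ehf IKO, 40.1 to 94.8 CPM in Control TMX and 14.8 to 40.6 CPM in Control OIL. No gene of the endothelial and smooth muscle lists was called by edgeR in the pooled comparison. There 2 of 3 tested endothelial and 5 of 6 tested smooth muscle genes had an unadjusted p under 0.05, against 12.6% of all genes. The 6 proximal colon markers summed to 96.0 to 111.9 CPM in Ehf IKO, 145.6 to 175.7 CPM in Control TMX and 153.6 to 174.4 CPM in Control OIL, and 1 of 5 tested, Ggh, fell in Ehf IKO against each control (edgeR). Of all genes 1.68% were called against Control OIL and 0.8% against Control TMX. The 5 did not move together: 2 were above 0 and 3 below in each comparison. Their median log2 fold changes were -0.04 against Control OIL and -0.12 against Control TMX. A score of proximal minus distal colon markers was -0.739 and -0.028 in male and 0.099 and 0.276 in female oil libraries. In Control TMX it was 0.155 and 0.573 in males and 0.043 and -0.006 in females. In Ehf IKO it was -0.104 and 0.091 in males and 0.007 and -0.368 in females. Its part in the split by sex was not tested. When the fibroblast score entered the fit, 0 members were called in any comparison with oil, while Fmo1 and Mgst1 stayed called against Control TMX. With the score the fold changes were nearly as large or larger, and their SEs were larger. On the log2 scale against oil, Fmo1 was 2.88 ± 0.59 and Mgst1 0.82 ± 0.22 in Ehf IKO, and in the pooled comparison Por was 0.57 ± 0.17 and Cyp2s1 0.76 ± 0.20 (edgeR adjusted p = 0.126, 0.337, 0.61 and 0.436). Hepatocyte markers, whose cells share many of these enzymes, summed to 54.3 to 87.0 CPM in Ehf IKO, 21.1 to 45.6 CPM in Control TMX and 17.8 to 30.9 CPM in Control OIL. Of the 3 tested among those 6 markers, 2 rose in Ehf IKO against oil. Most of the sum was Cps1, which enterocytes also express, and Alb averaged 3.13 ± 1.43 CPM in Ehf IKO, 1.02 ± 0.379 CPM in Control TMX and 0.75 ± 0.108 CPM in Control OIL.

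Beyond the members, 61 of 84 listed enzymes and pumps of xenobiotic metabolism were testable. In tamoxifen-treated against oil-treated mice 1 of the 61 rose, the sterol sulfotransferase Sult2b1, and none fell by edgeR. Of all genes 0.26% were called higher. An unadjusted p under 0.05 was found for 8 of the 61, close to the 12.6% of all genes. The median log2 fold change of the 61 was 0.10. Sult2b1 averaged 25.2 ± 2.10 CPM in Ehf IKO, 23.5 ± 0.606 in Control TMX and 16.5 ± 2.87 in Control OIL. In Ehf IKO against Control TMX 3 rose and none fell by edgeR, where 0.33% of all genes were called higher. An unadjusted p under 0.05 was found for 15, against 11.9% of all genes. The 3 that rose were the glutathione transferase Gsta3, the deacetylase Aadac and the carboxylesterase Ces2g. Gsta3 averaged 26.7 ± 7.49 CPM in Ehf IKO and 8.71 ± 2.02 CPM in Control TMX, with a log2 fold change of 1.61 ± 0.22 (edgeR adjusted p = 0.00232). Against Control OIL, Ehf IKO had Gsta3, Sult2b1 and Cyp2w1 higher, where 0.921% of all genes were called higher. Control TMX had none of the 61 called, where 0.0826% of all genes were called. There 9 had an unadjusted p under 0.05, against 12.9% of all genes.

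Of 19 NRF2 targets and genes of glutathione supply, Slc7a11, the cystine importer, rose in Ehf IKO against Control TMX, where 0.33% of all genes were called higher. It averaged 9.15 ± 2.24 CPM in Ehf IKO and 2.73 ± 1.67 CPM in Control TMX (log2 fold change 1.68 ± 0.36, edgeR adjusted p = 0.0391). None of the 19 was called by edgeR in the other 3 comparisons. An unadjusted p under 0.05 was found for 3 in the pooled tamoxifen comparison, 5 in Ehf IKO and 5 in Control TMX against oil. In Ehf IKO against Control TMX it was found for 7 of the 19. Over all genes the shares with such a p were 12.6%, 11.9% and 12.9% in the same order, and 11.9% in Ehf IKO against Control TMX. Of 9 partners of the nuclear receptors none was called in any comparison by edgeR, with 3 at an unadjusted p under 0.05 in the pooled tamoxifen comparison, 0 in Ehf IKO and 3 in Control TMX against oil, and 1 in Ehf IKO against Control TMX. The 2 testable AhR partner and target genes were not called in any, and 0 had an unadjusted p under 0.05.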

How the data were processed

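Counts of reads per gene were deposited for each of 12 libraries. Per the file headers, the authors made these counts with featureCounts 1.6.1 over the exons of Ensembl GRCm38 release 98 grouped by gene name, without strand and without reads that mapped to several places or genes; STAR, version not given in the sources used here, is named in the submitters' processing notes. Totals were 7421411 to 10344161 with a median of 8138352.5. Mice are the replicates, and each library was taken as 1 mouse.

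The tests used edgeR 4.0.16 (R 4.3.3) with TMM factors, filterByExpr by group, 1 quasi-likelihood fit (legacy and robust settings) of all 12 libraries with 9 residual degrees of freedom, Benjamini-Hochberg adjustment over 15743 genes, threshold 0.05. Of 46 members, 44 passed the filter. SE is the log2 fold change divided by the square root of F. Levels per length use the exon length in the files. The procedure was tested on simulated counts with known changes.

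The members and gene lists were chosen with earlier results of these data known. Members named with full values are those called in a comparison, the 4 receptors or regulators, Cyp1a1 and the most abundant member of each role, and from each list at most 4 called genes with the smallest p; others are said to be chosen after their values were seen. Positions are Ensembl's on GRCm38. Promoters come from RefSeq (GRCm38.p6) for 38 members. Alternatives were DESeq2 1.42.0 and its size factors, limma-voom (limma 3.58.1), no filter, a floor of 1 on the mean log2 CPM, fits of the compared groups alone, a replicate block, marker scores as covariates and leaving out each library; fits by sex were added after the data were seen. Deviations of same-numbered libraries from their group means correlated at 0.12 to 0.45 in the 4 pairs of Ehf IKO and Control TMX. In pairs with Control OIL they correlated at -0.43 to 0.22. Same-numbered libraries also share sex, and same-sex libraries of unlike number were not compared, so these values cannot show pairing. No label pairs the libraries.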

Additional observations from a re-analysis of the deposited data

Results flagged for a closer look

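Differences between the sexes were called by edgeR for 16 members in tamoxifen-treated against oil-treated mice, each as the log2 fold change in males minus that in females. In a fit of 2 mice per group and sex, added after the values were seen, P450 genes gave 3.71 for Cyp2c55 and 1.24 for Cyp2c65. Hydrolases gave 2.23 for Ces1d, 1.71 for Ces1g and 0.99 for Ces1f. The aldehyde reductase Akr1b8 gave 1.20. Among glutathione enzymes the difference was 1.53 for Gsta4, 1.48 for Gstt1 and 1.35 for Gstm3. Transferases of glucuronic acid gave 1.91 for Ugt2b5 and 0.85 for Ugt2b34, and sulfotransferases 1.38 for Sult1c2 and 1.02 for Sult1a1. The pumps gave 1.30 for Abcb1a, 0.77 for Abcg2 and -1.65 for Abcc2. In Ehf IKO against Control TMX the difference was called for Abcg2 alone, at -1.34: it gave -0.06 ± 0.15 in males and 1.28 ± 0.15 in females.

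Single libraries stood apart from the other 3 of their group in 4 of 54 sets of values examined, where chance flags about 1 in 20. They were Fmo1 at 12.6 CPM, Sult1a1 at 125 CPM and Abcc3 at 576 CPM, all in Ehf IKO replicate 4, and Fmo4 at 4.97 CPM in Control OIL replicate 3.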

How the results depend on the processing

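Numbers of members called are given for the pooled tamoxifen comparison, Ehf IKO against oil, Control TMX against oil and Ehf IKO against Control TMX, which were 2, 7, 1 and 2. The share of all genes called in each alternative is not given in this section. The counts therefore compare settings, and do not set members against other genes. Without a filter they were 9, 16, 7 and 9 over 41205 genes, of which 2, 3, 0 and 2 were lower; the median log2 fold change of all genes was then 0.15, 0.15, 0 and 0.14. DESeq2 gave 5, 11 and 2 in the comparisons with oil, with all-gene medians of 0.18, 0.19 and 0.00. The causes were not tested. A floor of 1 on the mean log2 CPM, limma-voom and the proximal minus distal colon score each left 0 in Control TMX against oil, and that score gave 4 in Ehf IKO against Control TMX. Fits of the compared groups alone gave 2 in Ehf IKO against oil and 6 in Ehf IKO against Control TMX. The fibroblast score is below 0 in all oil libraries and also in replicate 2 of Ehf IKO and of Control TMX. It left 0, 0 and 0 against oil, with larger SEs and log2 fold changes of 0.57 to 2.88 for the members called without it. The colonocyte score left 4 in Ehf IKO and 0 in Control TMX against oil and 5 in Ehf IKO against Control TMX. It left 2 in the pooled comparison, of which 0 are Por or Cyp2s1. With a replicate block, Control TMX against oil had 2, as with the sex marker score. The block left Fmo1 and Mgst1 called in Ehf IKO against Control TMX (edgeR adjusted p = 0.0388 and 0.0459). It ended the calls of Fmo4 and Cbr3 in Ehf IKO against oil (edgeR adjusted p = 0.106 and 0.0618). In the fit of all 12 libraries with group and sex as factors, contrasts within males gave 22, 18 and 15 in the comparisons with oil, and those within females 12, 13 and 9 in the comparisons other than Ehf IKO against oil.

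Leaving out 1 library gave 0 to 6 members in the pooled comparison, 2 to 11 in Ehf IKO and 0 to 2 in Control TMX against oil, and 0 to 4 in Ehf IKO against Control TMX. The pooled comparison had 0 without Control TMX replicate 1, 2 or 3, Control OIL replicate 1, 3 or 4 or Ehf IKO replicate 1 or 3, and 6 without Ehf IKO replicate 4. Control TMX against oil had 0 without the same 8 libraries or Ehf IKO replicate 2. It had 2 without Control TMX replicate 4, Control OIL replicate 2 or Ehf IKO replicate 4. Ehf IKO against oil had 2 without Ehf IKO replicate 1 or 3, 3 without Control OIL replicate 4, 4 without Ehf IKO replicate 2 or Control TMX replicate 4 and 11 without Ehf IKO replicate 4. Ehf IKO against Control TMX had 0 without Control TMX replicate 2 or 3 and 4 without Control OIL replicate 3. None of the 12 log2 fold changes called in the 4 comparisons changed sign in these alternatives. With 4 mice per group and 35 to 94 counts of Fmo1 in an Ehf IKO library, low members rest on few reads.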
